A study of Saccharomyces cerevisiae with 24 samples.

Results

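The 10 genes described here act in sulfate assimilation, methionine synthesis and uptake, and S-adenosylmethionine synthesis in budding yeast. They were taken by name from a table of counts for 6692 open reading frames (ORFs). They are *MET3*, *MET14*, *MET16*, *MET5*, *MET10*, *MET6*, *STR3*, *MUP1*, *SAM1* and *SAM2*. All 10 were found, and all 10 had enough counts to be tested in every comparison. The genes were chosen by role and name, with measured differences between strains and media in these data already known, among them the low *MET6* level of a mutant in glucose medium. Differences of the 10 genes between strains in that medium are therefore given as a description, without p-values. The list has no threshold, so there are no genes just inside or outside of it.

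RNA was measured by poly(A) mRNA-seq in 24 libraries of *Saccharomyces cerevisiae*, with 4 replicate libraries for each of 3 strains in each of 2 media. The strains were WT, H3L126M and H3L126H, in which leucine 126 of histone H3 was replaced by methionine or histidine in both H3 genes, *HHT1* and *HHT2*. All 3 strains descend from BY4741, a MATa laboratory haploid related to S288C, so WT and mutants alike lack *MET17*, *URA3* and *LEU2*. They also share a partly deleted *HIS3*. YPD is rich fermentative medium with glucose, and YPEG is the same yeast extract and peptone with ethanol and glycerol, in which growth depends on respiration. The replicates came from separate experiments, but the sources used here do not say whether more than 1 clone of each mutant was grown, so clone and substitution cannot be told apart.

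Yeast takes up sulfate and activates it with ATP, phosphorylates it again, and reduces it to sulfite and then to sulfide. Sulfide is then joined to O-acetylhomoserine by Met17 to give homocysteine, which Met6 methylates to methionine, and methionine is turned into S-adenosylmethionine, the methyl donor of the cell. The genes are known to be induced together by the activator Met4 when sulfur amino acids run low, with Cbf1, Met28, Met31 and Met32 bringing Met4 to promoters and the ubiquitin ligase subunit Met30 holding it back. Cells without *MET17* reduce sulfate to sulfide but join it to O-acetylhomoserine poorly, and they depend on organic sulfur such as the methionine in yeast extract and peptone. Hsu1 is a related enzyme that can use sulfide in cells without *MET17*.

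The totals assigned to ORFs ranged from 8570789 to 15577958 counts per library. *MET17* and *URA3* had 0 counts in all 24 libraries and *LEU2* at most 1, while the a-cell genes *MFA1*, *MFA2*, *STE2* and *BAR1* had at least 150 counts in each. The defining markers of the other mating type were not absent. *MF(ALPHA)1* had 208 to 381 counts in H3L126H in YPEG, next to 332 to 423 of *MFA1*, and 0 to 62 in the other 5 groups, 15 to 50 of them in WT in YPEG, and *STE3* had 39 to 245 counts over all libraries. Their part in the results below was not tested. WT replicates 1 and 2 stood apart from replicates 3 and 4 in both media. In YPD the chi-square statistic per gene was 3.90 and 9.73 within these pairs and 49.6 to 81.2 between them, and in YPEG it was 10.7 and 21.0 within and 50.2 to 72.3 between. Counts and values from comparisons with WT are therefore also given without each pair, though not for every value that moved. H3L126M in YPEG was spread as widely, from 7.56 (replicates 3 and 4) to 72.5 (2 and 4). For it only single libraries were left out, not pairs. In H3L126H whole chromosomes differed from WT, with median log2 fold changes in YPD of 0.42 on chromosome XVI, which holds *MET16*, 0.21 on V, which holds *MET6*, and -0.16 on IV, which holds *SAM2*. The H3L126M medians of the nuclear chromosomes lay between -0.02 and 0.07 in YPD and between -0.06 and 0.09 in YPEG. The medians of its mitochondrial ORFs were -0.05 in YPD and 0.615 in YPEG. Libraries were made from bulk cultures, in which fewer cells that express a gene and less RNA per cell cannot be told apart.

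The promoters were searched for 3 short motifs, on both strands, because the same regulators are known to act on most of these genes. The motifs were CACGTG (bound by Cbf1), CTGTGG (the core of the Met31 and Met32 site) and TGACTC (bound by Gcn4, the activator of amino acid synthesis). In the window from 250 bases before to 50 bases after the start of the ORF, CACGTG occurred in *MET14*, *MET16* and *MET10*, 3 of the 10 genes, against 2.9% of 6001 ORFs. CTGTGG occurred in *MET10* alone, against 6.8%, and TGACTC in *MET16*, *MET5* and *MUP1*, against 8.0%. A window of 600 bases before the ORF, chosen after the shorter window had been seen, held CACGTG in 7 of the 10 genes against 7.2% of 5999 ORFs, CTGTGG in 7 against 16.6%, and TGACTC in 5 against 15.3%. Such a window can reach into the neighboring gene. A match is a run of letters and was not tested as a binding site. The 60-base stretches that hold the CACGTG matches of the 7 genes are printed 5′ to 3′ on the strand of the gene, from the R64 reference genome. Capitals mark CACGTG and CTGTGG, the latter also as its reverse complement.
MET3, chrX:455849-455908, plus strand: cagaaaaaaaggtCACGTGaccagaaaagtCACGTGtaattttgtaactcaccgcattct
MET14, chrXI:439576-439635, minus strand: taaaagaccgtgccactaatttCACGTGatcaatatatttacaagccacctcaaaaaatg
MET16, chrXVI:877778-877837, minus strand: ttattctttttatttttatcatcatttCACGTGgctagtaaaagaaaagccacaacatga
MET5, chrX:683571-683630, minus strand: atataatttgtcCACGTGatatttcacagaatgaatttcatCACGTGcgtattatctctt
MET10, chrVI:213057-213116, plus strand: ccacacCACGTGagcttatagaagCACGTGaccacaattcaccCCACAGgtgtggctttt
MET6, chrV:342648-342707, minus strand: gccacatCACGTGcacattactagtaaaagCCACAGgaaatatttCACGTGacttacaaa
SAM2, chrIV:1454740-1454799, minus strand: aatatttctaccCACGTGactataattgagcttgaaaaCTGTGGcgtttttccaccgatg

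*MET3*, *MET5*, *MET10* and *MET6* have a pair of CACGTG matches in these stretches, and *MET10*, *MET6* and *SAM2* also have a CTGTGG match within the same 60 bases. The *MET6* pair lies 533 and 495 bases before its ORF, farther away than in the other 6 genes, whose matches begin 178 to 377 bases before theirs. *SAM1*, *STR3* and *MUP1* had no CACGTG in the 600 bases but had CTGTGG, 4 times in *MUP1*.

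**Figure D1:**
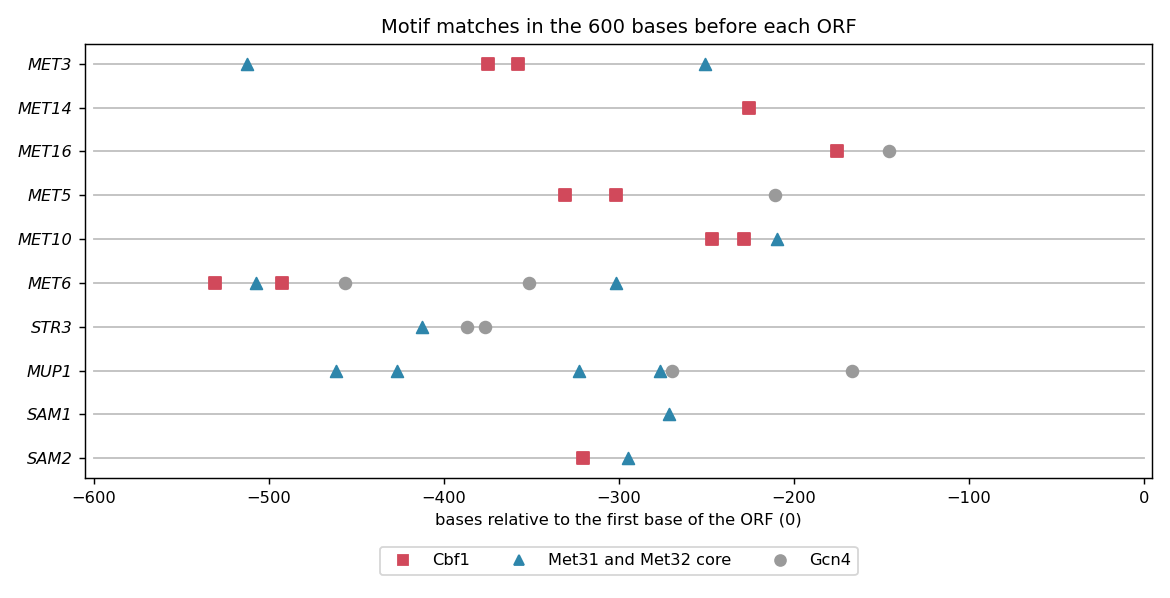
Positions of the 3 motifs (squares, CACGTG of Cbf1, triangles, CTGTGG of Met31 and Met32, circles, TGACTC of Gcn4) in the 600 bases before each of the 10 ORFs, with the first base of the ORF at 0. Squares appear in 7 genes and triangles in 7, and the squares of *MET6* are the farthest from the ORF.

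Levels are given as CPM, counts scaled to a common library total, after TMM scaling of all 24 libraries, and levels of different genes are compared only per kilobase of ORF. Per kilobase, *SAM1* had the highest group means of the 10 genes in all 6 groups, from 332 to 898 CPM, and *STR3*, *MET3*, *MET5*, *MET10* and *MET16* had the lowest, with group means of up to 39.6. *STR3* had the widest range of group means, from 3.69 CPM per kilobase in H3L126M in YPD to 24.2 in H3L126H in YPEG. *MET14* had the narrowest, from 62.1 to 98. H3L126M in YPD held the lowest group mean of *MET14*, *MET16*, *MET10*, *MET6*, *STR3* and *MUP1*. WT in YPD held the highest group mean of *MET3*, *MET6*, *SAM1* and *SAM2*. Summed over the 10 genes, the median was 2844 CPM in WT, 1506 in H3L126M and 2228 in H3L126H in YPD, and 1810.1, 1563 and 1767 in YPEG. The sum is given as a description.

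**Figure D2:**
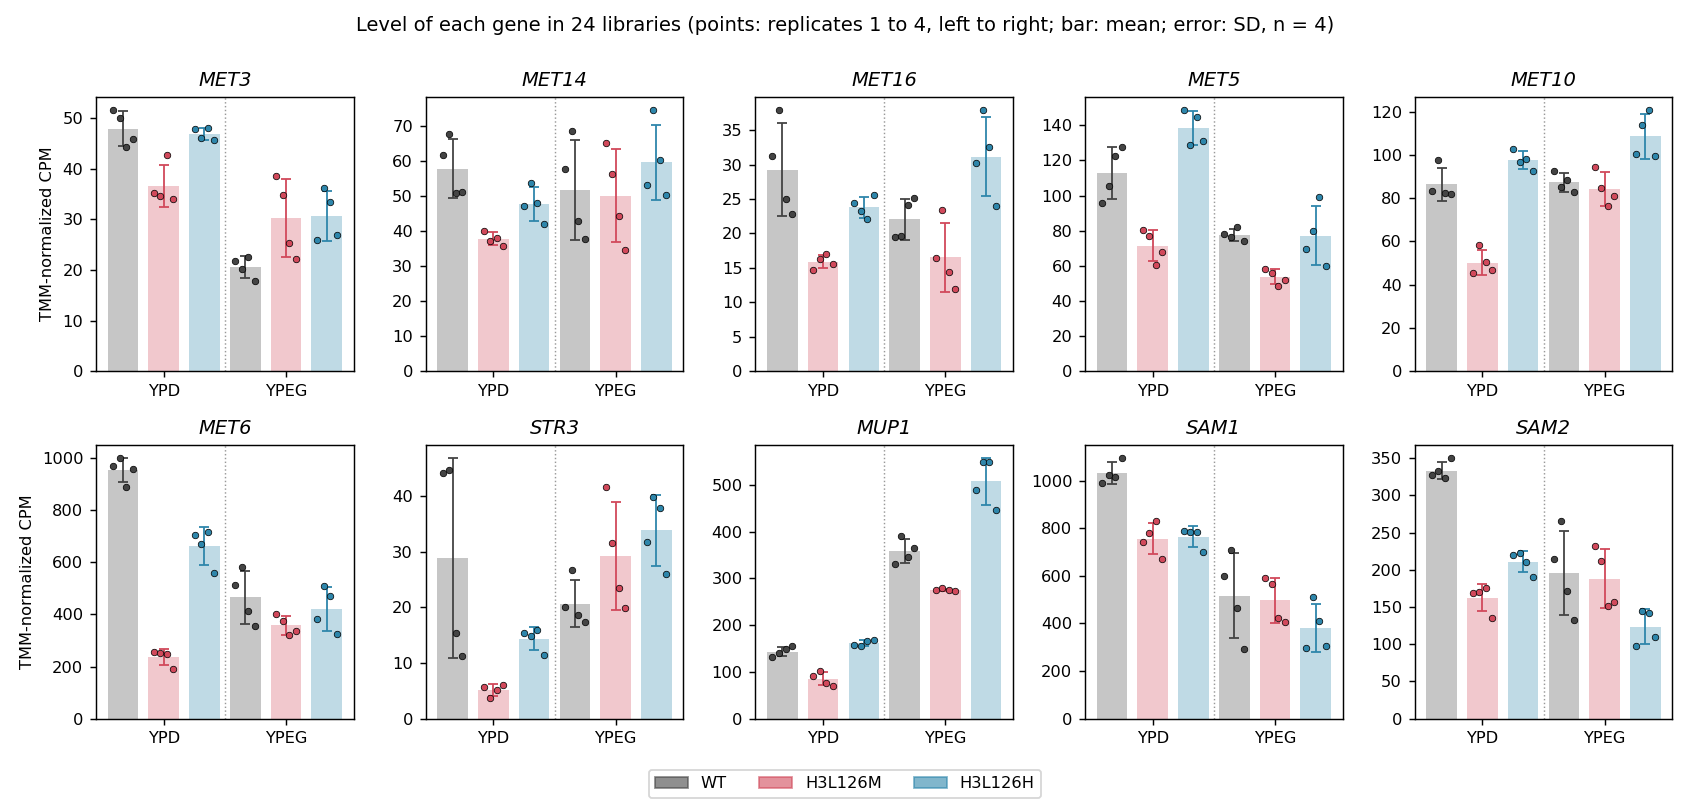
TMM-normalized CPM of each of the 10 genes in the 24 libraries, by medium and strain, with points for replicates 1 to 4 from left to right, bars for the mean and error bars for the SD (n = 4). *MET6* in YPD lies between 889 and 1000.3 CPM in WT, between 189 and 255 in H3L126M and between 561 and 717 in H3L126H.

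In YPD the libraries of H3L126M lay below those of WT for all 10 genes, with no overlap between the groups. The difference was largest for *STR3* and *MET6* and smallest for *MET3* and *SAM1*. By edgeR's quasi-likelihood test with Benjamini-Hochberg adjustment over 5976 genes, all 10 were called lower at an adjusted p below 0.05, a direction in which 6.74% of all genes were called. Groups that do not overlap, in either direction, were found for 18.5% of all genes. Nothing is read from these counts, because the list was chosen with this comparison known. The median log2 fold change of the 10 genes was -0.75, and that of all genes tested was 0.01. Without WT replicates 1 and 2, 9 of the 10 were called, *MET3* being the exception, and without replicates 3 and 4 all 10 were called.

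*MET6* (YER091C, chrV:339864-342167, minus strand) encodes the methionine synthase that methylates homocysteine without cobalamin. Its levels in YPD were 972, 1000.3, 889 and 958 CPM in WT, 255, 253, 248 and 189 in H3L126M, and 705, 669.7, 717 and 561 in H3L126H. No strains overlapped, with H3L126M lowest and H3L126H between the others. The fall against WT was 3.99-fold in H3L126M (log2 -1.99, SE 0.10) and 1.39-fold in H3L126H (log2 -0.48, SE 0.10). In H3L126M the log2 value was -1.95 without WT replicates 1 and 2 and -2.05 without 3 and 4. In H3L126H it was -0.43 and -0.54, and -0.69 with the median of each chromosome removed.

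*STR3* (YGL184C, chrVII:154615-156012, minus strand) encodes cystathionine beta-lyase, which makes homocysteine from cystathionine. Its levels were 44.1, 44.7, 15.3 and 11.3 CPM in WT, 5.72, 3.73, 5.07 and 6.10 in H3L126M, and 15.3, 14.8, 15.9 and 11.3 in H3L126H. All H3L126M libraries were below all others, whereas the H3L126H libraries lay within the range of WT replicates 3 and 4 or just above it. The log2 fold change of H3L126M was -2.46 (SE 0.41) with all WT libraries, -1.33 without WT replicates 1 and 2, and -3.08 without 3 and 4. In H3L126H it was -0.96 (SE 0.37), 0.16 and -1.59, so its sign turned on which WT pair was used.

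*SAM1* (YLR180W, chrXII:515262-516410, plus strand) and *SAM2* (YDR502C, chrIV:1453310-1454464, minus strand) encode the S-adenosylmethionine synthetases. *SAM2* levels were 327, 332, 324 and 351 CPM in WT, 169, 170.1, 175 and 136 in H3L126M, and 219, 222, 211 and 191 in H3L126H. No strains overlapped, and the fall against WT was 2.02-fold in H3L126M (log2 -1.01, SE 0.08) and 1.53-fold in H3L126H (log2 -0.61, SE 0.08). *SAM1* was between 989.6 and 1097 CPM in WT, 672 and 829 in H3L126M, and 699 and 790.2 in H3L126H. Both mutants were below WT by like amounts, with log2 fold changes of -0.42 and -0.38 (SE 0.07 each). Without either WT pair, *SAM1* lay between -0.46 and -0.40 in H3L126M and between -0.42 and -0.36 in H3L126H, and *SAM2* between -1.03 and -1.01 and between -0.63 and -0.61. The ORFs of *SAM1* and *SAM2* are 82.8% identical, and 98.2% of the 50-base windows of each occur nowhere else in the genome.

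The 5 genes of sulfate activation and reduction were lower in H3L126M by -0.36 to -0.86 on the log2 scale. *MET16* (YPR167C, chrXVI:876847-877632, minus strand), which encodes the reductase that makes sulfite, was between 22.8 and 37.9 CPM in WT, 14.7 and 17.0 in H3L126M, and 22.1 and 25.6 in H3L126H. Its log2 fold change was -0.86 (SE 0.15) in H3L126M and -0.25 (SE 0.15) in H3L126H, and these were -0.57 and 0.04 without WT replicates 1 and 2 and -1.11 and -0.50 without 3 and 4. *MET16* lies on chromosome XVI, and with chromosome medians removed the H3L126H value was -0.67.

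The alpha and beta subunits of sulfite reductase, which makes sulfide, are encoded by *MET10* (YFR030W, chrVI:213312-216419, plus strand) and *MET5* (YJR137C, chrX:678957-683285, minus strand). *MET10* levels were 83.3, 97.6, 82.5 and 82.1 CPM in WT, 45.4, 58.2, 50.7 and 46.8 in H3L126M, and 103, 96.9, 98 and 92.5 in H3L126H. *MET5* was between 95.5 and 128 CPM in WT, 60.6 and 80.1 in H3L126M, and 129 and 149 in H3L126H. Both subunits were lowest in H3L126M and highest on average in H3L126H. The log2 fold changes against WT were -0.76 (SE 0.09) and 0.22 (SE 0.09) for *MET10* and -0.64 (SE 0.10) and 0.34 (SE 0.10) for *MET5*, H3L126M first. Without WT replicates 1 and 2 they were -0.69 and 0.29 for *MET10* and -0.79 and 0.19 for *MET5*, and without 3 and 4 they were -0.84 and 0.15 for *MET10* and -0.48 and 0.50 for *MET5*.

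*MET14* (YKL001C, chrXI:438777-439385, minus strand), the kinase of activated sulfate, and *MET3* (YJR010W, chrX:456239-457774, plus strand), ATP sulfurylase, had the smallest falls of this group in H3L126M. Their log2 fold changes were -0.59 (SE 0.11) and -0.36 (SE 0.09), and in H3L126H they were -0.23 (SE 0.11) and 0.02 (SE 0.09). Without WT replicates 1 and 2, *MET14* was at -0.41 and -0.05 and *MET3* at -0.28 and 0.11 in H3L126M and H3L126H. Without 3 and 4, *MET14* was at -0.77 and -0.40 and *MET3* at -0.46 and -0.08.

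*MUP1* (YGR055W, chrVII:599417-601141, plus strand), the high-affinity methionine permease, was between 131 and 154 CPM in WT, 70.7 and 102 in H3L126M, and 156 and 169 in H3L126H. Libraries of H3L126M were below WT and those of H3L126H above it, by -0.73 and 0.22 on the log2 scale (SE 0.10 each). Without WT replicates 1 and 2 these were -0.81 and 0.15, and without 3 and 4 they were -0.67 and 0.29. *MUP1* lies on chromosome VII, and with chromosome medians removed the H3L126H value was 0.40.

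**Figure D3:**
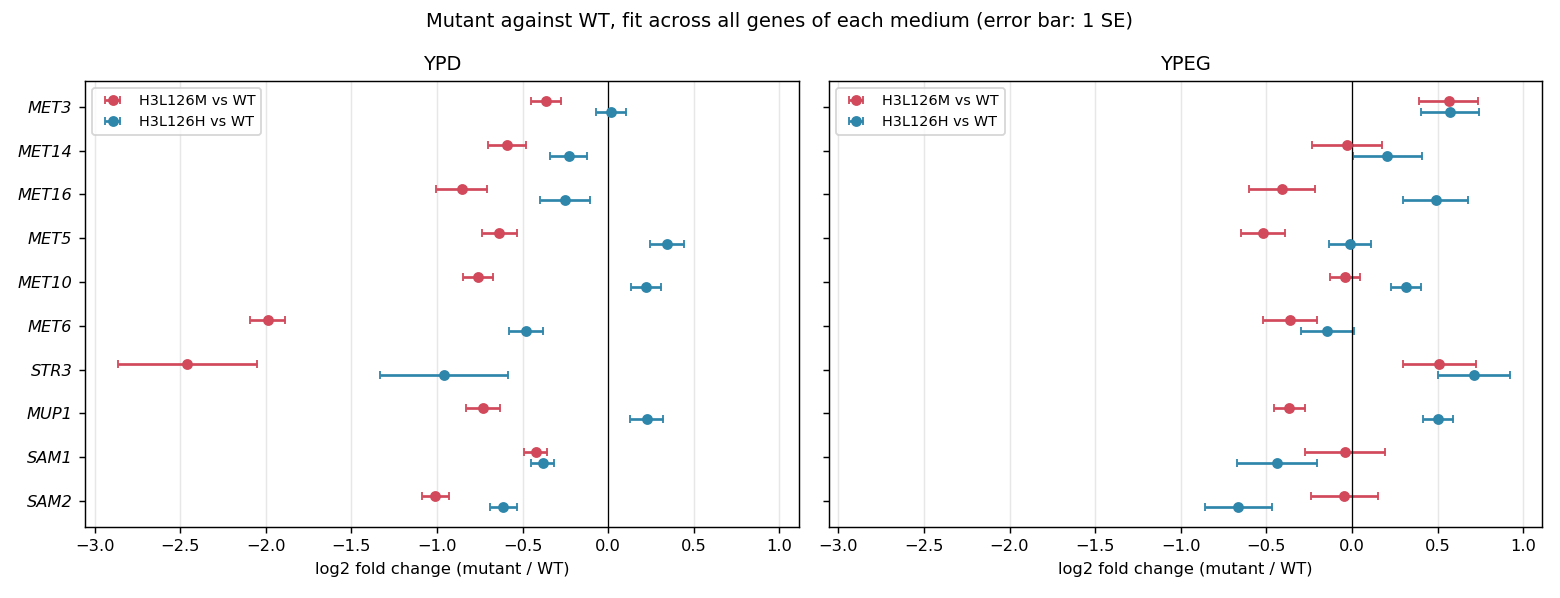
Log2 fold change of each gene in H3L126M and H3L126H against WT, in YPD (left) and YPEG (right), from edgeR fits across all genes of each medium, with bars of 1 SE. In YPD every H3L126M value is below 0, from -2.46 for *STR3* to -0.36 for *MET3*, and in YPEG the H3L126M values run from -0.52 to 0.56.

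For H3L126H against WT in YPD, 4 of the 10 genes were called, 1 higher (*MET5*) and 3 lower (*MET6*, *SAM1* and *SAM2*), against 24.5% of all genes called higher and 20.1% lower. The count was 7 with chromosome medians removed or without WT replicate 4, 4 without WT replicates 1 and 2, where *MET10* was called higher in place of *MET5*, and 8 without 3 and 4. H3L126M was called lower than H3L126H in YPD for 9 of the 10 genes, all but *SAM1*, against 19.4% of all genes. Nothing is read from the counts of calls in this medium, because the list was chosen with results in it known. The largest differences were those of *MET6* (log2 -1.52, SE 0.10), *STR3* (-1.49, SE 0.41), *MET10* (-0.98, SE 0.09) and *MET5* (-0.98, SE 0.10). *MET6* stood at -1.28 and *MET16* went from -0.61 to -0.19 with chromosome medians removed.

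In YPEG the H3L126M libraries overlapped those of WT for 8 of the 10 genes, while 28.6% of all genes had groups that did not overlap, and none of the 10 differed by 2-fold. The p-values of the comparisons in YPEG and between media come from edgeR's quasi-likelihood test with Benjamini-Hochberg adjustment over all genes, and they are no independent evidence, since the list was chosen with earlier results known. Of the 10 genes, 1 was called higher and 2 lower, against 17.1% and 19.0% of 6022 genes. *MET3* was higher in H3L126M (log2 0.56, SE 0.17, adjusted p = 0.0194), and *MET5* (-0.52, SE 0.13, adjusted p = 0.00546) and *MUP1* (-0.37, SE 0.09, adjusted p = 0.00521) were lower. The *MET3* call was lost without either WT pair (log2 0.58, adjusted p = 0.0502, and 0.53, adjusted p = 0.0923), with a value as large as before, and without WT replicate 4 (0.50) or H3L126M replicate 1 (0.43) or 2 (0.47). *MET6* levels were 512, 582, 412 and 356 CPM in WT and 400.2, 376, 322 and 337 in H3L126M. These ranges overlapped, and the log2 fold change was -0.36 (SE 0.16, adjusted p = 0.0854). It was -0.10 without WT replicates 1 and 2 and -0.60 (adjusted p = 0.0128) without 3 and 4, and it also passed the test without WT replicate 4 alone (-0.47). *SAM1*, *SAM2*, *MET14* and *MET10* had log2 fold changes between -0.04 and -0.03, with SE up to 0.23. *MET16* (-0.41, SE 0.19) and *STR3* (0.51, SE 0.21) did not pass the test, and *STR3* passed it without WT replicates 1 and 2 (0.69, adjusted p = 0.0452), WT replicate 2 (0.65) or H3L126M replicate 4 (0.66), as *MET16* did without H3L126M replicate 2 (-0.64). *STR3* also passed DESeq2's Wald test (adjusted p = 0.0475), and edgeR's test with a replicate block, a term for replicate number (0.49, adjusted p = 0.0377). *MET6* passed with such a block (-0.34, adjusted p = 0.0462) and with all 24 libraries in the fit (-0.38, adjusted p = 0.0388).

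H3L126H differed from WT in YPEG in 5 of the 10 genes, 4 higher and 1 lower, against 18.7% and 17.7% of all genes. *MUP1* levels were 331, 391, 346 and 364 CPM in WT, 275, 279, 276 and 273 in H3L126M, and 489.9, 549, 548 and 445 in H3L126H. No strains overlapped, with H3L126M lowest and H3L126H highest, and H3L126H was above WT by 0.50 on the log2 scale (SE 0.09, adjusted p = 0.000778). *MET3* (0.57, adjusted p = 0.0172), *MET10* (0.31, adjusted p = 0.0121) and *STR3* (0.71, adjusted p = 0.0167) were also higher, and *SAM2* was lower (-0.66, adjusted p = 0.0167). The *SAM2* call was lost without WT replicates 1 and 2 (-0.31) and with chromosome medians removed (-0.51), and those of *MET3*, *MET10* and *STR3* were lost without 3 and 4, at values of 0.55, 0.30 and 0.54. Leaving out H3L126H replicate 2 ended the calls of *MET3* (0.49) and *STR3* (0.63), and leaving out WT replicate 2 or H3L126H replicate 1 ended that of *SAM2* (-0.49 and -0.56). The *STR3* call was also lost with all 24 libraries in the fit (0.71, adjusted p = 0.0707). *MET16* was at 0.49 (SE 0.19, adjusted p = 0.0548) and at 0.11 with chromosome medians removed. It passed DESeq2's Wald test (adjusted p = 0.0351). In edgeR it passed with only the libraries compared (adjusted p = 0.0262) or all 24 libraries (adjusted p = 0.0272) in the fit. It also passed with a mean of 100 counts required (adjusted p = 0.0491). Without WT replicates 3 and 4 it was at 0.68 (adjusted p = 0.0487), and without 1 and 2 at 0.32. *SAM1* (-0.44, SE 0.23) did not pass, with 0.00 without WT replicates 1 and 2 and -0.77 (adjusted p = 0.0132) without 3 and 4.

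H3L126M and H3L126H were compared directly in YPEG, which does not involve the WT libraries other than in the estimate of spread. Of the 10 genes, 1 was higher in H3L126M and 4 lower, against 19.4% and 21.2% of all genes. *MUP1* (log2 -0.87, SE 0.09, adjusted p = 4.24e-06), *MET5* (-0.51, SE 0.13, adjusted p = 0.00499) and *MET10* (-0.35, SE 0.09, adjusted p = 0.00508) were lower with and without chromosome medians removed. *MET16* was lower (-0.90, adjusted p = 0.00187) and *SAM2* higher (0.62, adjusted p = 0.0207) only with the chromosome medians left in, the values without them being -0.50 (adjusted p = 0.0572) and 0.46 (adjusted p = 0.0852). The *SAM2* call was also lost without replicate 1 or 2 of H3L126M or replicate 1 or 4 of H3L126H (0.50 to 0.57). *MET6*, with -0.22 (SE 0.16), did not pass the test.

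Between media, *MUP1* was higher in YPEG than in YPD in all 3 strains, by 2.49-fold in WT, 3.24-fold in H3L126M and 3.13-fold in H3L126H (adjusted p = 1.04e-11, 1.4e-13 and 2.73e-13). Every YPEG library was above every YPD library of the same strain. Contrasts between media contain the YPD libraries, and the H3L126M difference from WT in YPD was known when the genes were chosen. The p-values of the 10 genes between media are therefore a description. *SAM1* was lower in YPEG in all 3 strains, with log2 fold changes of -1.0, -0.61 and -1.0 (SE 0.19 each) in WT, H3L126M and H3L126H. *MET5* was also lower in all 3, at -0.54, -0.41 and -0.84 (SE 0.12 each). In WT, 1 of the 10 genes was called higher and 6 lower, against 34.3% and 33.2% of 6082 genes. H3L126M had 5 higher and 2 lower, against 33.4% and 33.9%, and H3L126H had 2 higher and 5 lower, against 36.6% and 31.0%.

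*MET6* was lower in YPEG than in YPD in WT (log2 -1.04, SE 0.14, adjusted p = 8.12e-07) and in H3L126H (-0.65, SE 0.14, adjusted p = 0.000291). In H3L126M *MET6* was higher in YPEG (0.60, SE 0.14). That value has no p-value, because the low *MET6* level in YPD was known when the genes were chosen. In YPEG the group means of the 3 strains lay closer together than in YPD, at 465 ± 101, 359 ± 35.8 and 422 ± 84.0 CPM (SD, n = 4) in WT, H3L126M and H3L126H. *STR3* was higher in YPEG in H3L126M (log2 2.49, SE 0.35, adjusted p = 1.21e-06) and in H3L126H (1.23, SE 0.32, adjusted p = 0.00162). Its YPEG levels were 41.7, 31.6, 23.5 and 19.8 CPM in H3L126M and 31.7, 39.8, 37.8 and 25.9 in H3L126H, against 20.1, 26.7, 18.5 and 17.4 in WT. In WT the change of *STR3* did not pass the test (-0.48, SE 0.31), and it was 0.67 (adjusted p = 0.0253) without WT replicates 1 and 2 of YPD and -1.09 (adjusted p = 0.000186) without 3 and 4.

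*MET10* was higher in YPEG in H3L126M (log2 0.75, SE 0.09, adjusted p = 6.09e-08), while in WT and H3L126H it was at 0.02 and 0.15 and did not pass the test. *MET3* was lower in WT (-1.22, SE 0.14, adjusted p = 6.62e-08) and H3L126H (-0.61, SE 0.14, adjusted p = 0.000406) and at -0.28 (adjusted p = 0.0789) in H3L126M. *SAM2* was likewise lower in WT and H3L126H, both at -0.77 (adjusted p = 0.000244 and 0.000248), and at 0.21 (adjusted p = 0.267) in H3L126M. *MET14* passed the test in H3L126M (0.41, adjusted p = 0.0476) and *MET16* in WT (-0.40, adjusted p = 0.0469), both near the threshold, and each call was lost when any of several single libraries was left out. *MET16* in WT was at -0.07 (adjusted p = 0.752) without WT replicates 1 and 2 of YPD. In WT *MET14* did not pass the test (-0.17, SE 0.18), but was at -0.51 (adjusted p = 0.023) without WT replicates 1 and 2 of YPEG.

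**Figure D4:**
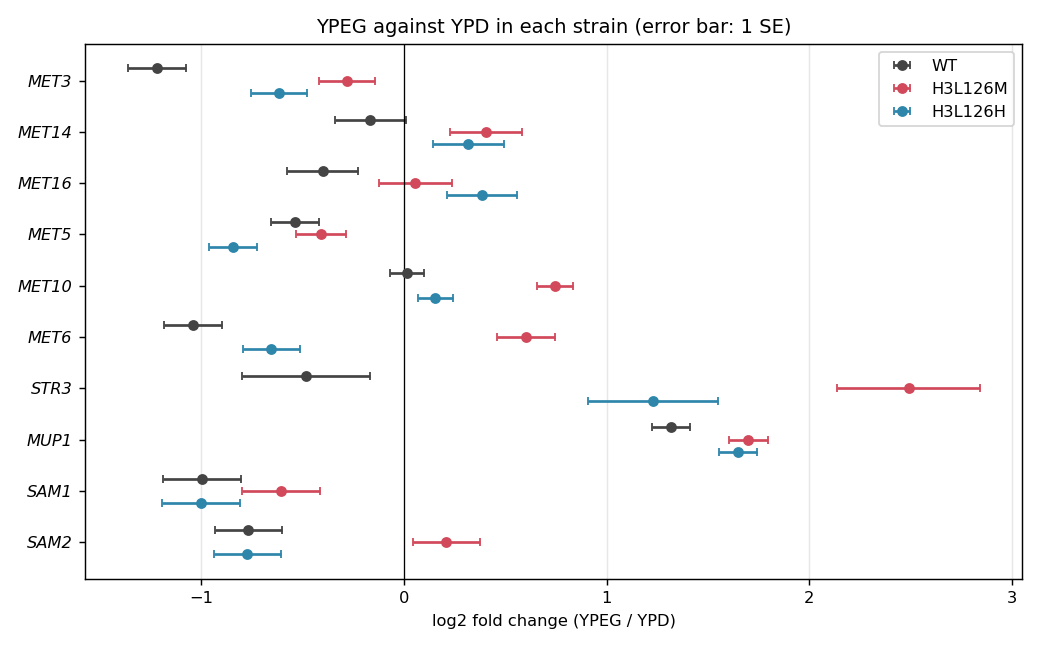
Log2 fold change of each gene in YPEG against YPD in WT, H3L126M and H3L126H, from an edgeR fit of all 24 libraries, with bars of 1 SE. *MUP1* lies between 1.32 and 1.70 in the 3 strains, and *MET6* lies at -1.04 in WT, 0.60 in H3L126M and -0.65 in H3L126H.

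Interaction terms of the same fit give how far a mutant's change across media differed from that of WT, here as a description, since they contain the YPD contrast. For H3L126M all 10 terms were above 0 (that of *MET5* was -0.04 without WT replicates 3 and 4 of YPD), and 6 were called, all higher, against 11.1% of all genes. They were *STR3* (log2 2.97, SE 0.47), *MET6* (1.64, SE 0.20), *SAM2* (0.98, SE 0.23), *MET3* (0.94, SE 0.20), *MET10* (0.73, SE 0.12) and *MUP1* (0.38, SE 0.13). For H3L126H, 3 were called, all higher, against 10.1% of all genes, namely *STR3* (1.71, SE 0.45), *MET16* (0.79, SE 0.25) and *MET3* (0.60, SE 0.20). None of the 3 was called without WT replicates 1 and 2 of YPD, 4 were called without 3 and 4, of which *MET5* was lower (-0.53), 4 without replicates 1 and 2 of YPEG and 1 without 3 and 4. The count was also 1 without WT replicate 1 or 2 of YPD, WT replicate 2 of YPEG or H3L126H replicate 2 of YPEG. For H3L126M the count without a WT pair was 5 to 8. *STR3* was at 1.82 without WT replicates 1 and 2 of YPD and 3.58 without 3 and 4, and *MUP1* was not called without replicates 3 and 4 of either medium (0.30 and 0.39) or with chromosome medians removed (0.35).

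A wider list of 51 sulfur genes, the 10 included, was drawn up by role for comparison, of which 41 are other genes and 39 of those could be tested. It too was drawn up with results of these data known, so its p-values are no independent evidence. In YPD, H3L126M was called against WT in 2 of these higher and 11 lower, with a median log2 fold change of -0.17, and in 20 without WT replicates 1 and 2. As shares of the 39 these are 5.13% and 28.2%, against 7.83% and 6.74% of all genes. H3L126H was called in 6 higher and 8 lower (15.4% and 20.5%, against 24.5% and 20.1%), with a median of -0.05. In YPEG the counts were 10 higher and 9 lower in H3L126M (25.6% and 23.1%, against 17.1% and 19.0%) and 11 higher and 4 lower in H3L126H (28.2% and 10.3%, against 18.7% and 17.7%). Across media 12 were higher and 21 lower in WT (30.8% and 53.8%, against 34.3% and 33.2%), 12 and 16 in H3L126M (30.8% and 41.0%, against 33.4% and 33.9%) and 16 and 15 in H3L126H (41.0% and 38.5%, against 36.6% and 31.0%). In H3L126M against H3L126H, 5 were higher and 9 lower in YPD (12.8% and 23.1%, against 16.2% and 19.4%). There were 6 higher and 13 lower in YPEG (15.4% and 33.3%, against 19.4% and 21.2%). Interaction terms were called in 10 higher and 2 lower for H3L126M (25.6% and 5.13%, against 11.1% and 13.6%). For H3L126H they were called in 9 higher and 1 lower (23.1% and 2.56%, against 10.1% and 9.27%).

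Of the 39, *SAM3*, the S-adenosylmethionine permease, changed at least 2-fold in 4 of the 6 strain comparisons. Its YPD levels were 99.2, 106, 92.6 and 107 CPM in WT, 40.1, 45.1, 41.0 and 27.5 in H3L126M, and 147, 144, 149.8 and 146 in H3L126H. H3L126M was lower than WT (log2 -1.38, SE 0.12, adjusted p = 3.68e-06) and lower than H3L126H (-1.96, SE 0.12), and in YPEG H3L126H was higher than WT (1.25, SE 0.14) and than H3L126M, which was at -1.65 (SE 0.15) against it. *SAM3* lies on chromosome XVI, and with chromosome medians removed H3L126H was above WT by 0.87 in YPEG, under 2-fold, and H3L126M was at -1.26 against it. *JLP1*, a sulfonate dioxygenase, was higher in YPEG in both mutants than in WT, by 1.21 and 1.31 (SE 0.12 each). *MET8*, which makes the siroheme of sulfite reductase, was lower in H3L126M in YPEG than in WT and H3L126H, by -1.10 in each (SE 0.22 and 0.21). *MET8* lies on chromosome II, and with chromosome medians removed its difference from H3L126H was -0.69, while that from WT stayed at -1.10. *HOM3*, aspartate kinase, was at -1.13 in H3L126M against H3L126H in YPEG (SE 0.24, and -0.95 with chromosome medians removed). Its raw counts varied among the H3L126M libraries in YPEG, with 321, 288, 656 and 853 in replicates 1 to 4.

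The list genes with the largest changes across media were transporters and early enzymes. *OPT1*, a transporter of glutathione and oligopeptides, was lower in YPEG in WT, H3L126M and H3L126H (log2 -2.42, -1.66 and -1.95), and so was *HOM3* (-1.90, -2.23 and -1.48). *SOA1*, a transporter of sulfonates and inorganic sulfur, was higher in all 3 strains (1.56, 1.71 and 1.54). *MMP1*, the S-methylmethionine permease, was also higher in all 3 (1.37, 1.53 and 1.76), as was *YCT1*, a cysteine transporter (0.98, 1.77 and 1.79). *MHT1*, a homocysteine methyltransferase that uses S-methylmethionine, was higher in each strain (1.20, 1.57 and 1.28), and so was *MET2*, homoserine O-acetyltransferase (0.86, 0.59 and 1.60), while *UTR4*, of methionine salvage, was lower in each (-1.38, -1.42 and -1.44).

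*HSU1* did not pass the test in any comparison of a mutant with WT, with log2 fold changes from -0.13 to 0.11, other than in YPD without WT replicates 3 and 4 (-0.35 and -0.30, adjusted p = 0.00995 and 0.0156), and it was lower in H3L126M than in H3L126H in YPEG (-0.23, adjusted p = 0.0219). It was higher in YPEG in all 3 strains (0.29, 0.31 and 0.53 in WT, H3L126M and H3L126H). The activator *MET4* was also higher in YPEG in all 3 (0.99, 1.01 and 0.81, SE 0.10 each), and its 4 contrasts with WT within a medium, from -0.11 to 0.12, did not pass the test, other than H3L126H in YPD without WT replicates 3 and 4 (0.20, adjusted p = 0.0246). *MET30* was higher in YPEG in all 3 strains (0.78, 0.45 and 0.79), and in YPEG it was lower in H3L126M than in WT (-0.26, adjusted p = 0.0193), a call lost without WT replicates 3 and 4 at the same value (adjusted p = 0.0661). *CBF1* was lower in both mutants than in WT in YPEG (-0.47, adjusted p = 0.0208, and -0.77, adjusted p = 0.00122), where WT replicates 1 and 2 had 88.4 and 104 CPM and replicates 3 and 4 had 147 and 135. Without replicates 3 and 4 the *CBF1* values were -0.16 (adjusted p = 0.359) and -0.45 (adjusted p = 0.0129). *MET31* was higher in YPD in both mutants (0.24, adjusted p = 0.0321, and 0.28, adjusted p = 0.00575), and neither passed the test without WT replicates 1 and 2. It lies on chromosome XVI, and with chromosome medians removed the H3L126H value turned to -0.14 (adjusted p = 0.144). In YPEG it was lower in H3L126M (-0.50, adjusted p = 0.0273), but -0.15 (adjusted p = 0.492) without WT replicates 3 and 4. Raw counts of *MET31* in H3L126M, not scaled for depth, were 338 to 432 in YPD and 136 to 232 in YPEG. Those of WT were 302 to 358 and 164 to 348, and those of H3L126H 315 to 379 and 359 to 526. *MET32* did not pass the test in any comparison, and *MET28*, whose highest count was 2, was not tested. Of the 5 regulators tested, 3 were called higher and 1 lower in YPEG in WT, 2 and 1 in H3L126M, and 2 and 0 in H3L126H. Of all genes, 33.4% to 36.6% were called higher and 31.0% to 33.9% lower there. H3L126M was called lower than H3L126H in YPEG for 2 of the 5, against 21.2% of all genes. Interaction terms were called lower for 1 regulator in each mutant, against 13.6% (H3L126M) and 9.27% (H3L126H) of all genes.

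The genes also varied among replicates, and not all together. With the mean of each group removed, the correlation of log2 CPM over the 24 libraries was 0.95 for *SAM1* and *SAM2*, 0.88 for *MET6* and *SAM2* and 0.87 for *MET6* and *SAM1*, but -0.24 for *STR3* and *MUP1* and 0.07 for *MET16* and *MET5*. The libraries share strains, media and depth, so these values are a description over 45 pairs of genes. Outside the list, the genes whose log2 CPM was most like the mean of *MET3*, *MET14*, *MET16*, *MET5* and *MET10* over the 24 libraries were *MXR1* (Pearson's r 0.85), *IML3* (0.82), *HTB2* (0.82), *BAP3* (0.80) and *MNN1* (0.79). With group means removed, *MXR1*, a methionine sulfoxide reductase, remained at 0.88, and the others were between 0.35 and 0.51.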

How the data were processed

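The authors aligned stranded reads to R64-1-1 (sacCer3) with HISAT2 and counted them per ORF with featureCounts (versions not given in the sources used here), and deposited raw counts, used here, and values normalized with DESeq2, not used here. Counts of 24 libraries were scaled by TMM and fitted with edgeR 4.0.16 (R 4.3.3) without a replicate block, with the 12 libraries of a medium together, or all 24 for comparisons between media. Genes passed filterByExpr at a minimum count of 10, and calls needed an adjusted p below 0.05 over all genes. SE is the log2 fold change divided by the root of F. Alternatives were DESeq2 1.42.0, its size factors, no filter or a mean of 100 counts, other libraries in the fit, an adjusted p below 0.01, a replicate block, removed chromosome medians, each library left out and, added after seeing the data, WT pairs left out. The scripts were tested on simulated data. Gene names not in the table (*HSU1*, *SOA1*) came from RefSeq, in which 6008 of 6692 ORFs matched. The genes and lists were chosen with earlier results of these data known. Other list genes were named where called, at least 2-fold and with 4 libraries on 1 side of the other 4, at most the 5 largest per comparison. *MET17*, *HSU1* and 6 regulators were always named, with the 5 genes most correlated with the sulfate genes. P-values rest on the spread between replicate libraries within groups, estimated together over the 3 strains of a medium or all 24 libraries. Figures were drawn with Python 3.11.15.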

Additional observations from a re-analysis of the deposited data

Results flagged for a closer look

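Of 60 groups of 4 libraries, 10 genes in 6 groups, 5 had a library far from the other 3 by Dixon's test, which chance gives in about 1 group in 20. They were *MET3* in H3L126M in YPD (highest library 42.8 CPM), *MET10* in WT in YPD (highest 97.6), *MET6* in H3L126M in YPD (lowest 189), *SAM2* in H3L126M in YPD (lowest 136) and *SAM1* in H3L126H in YPD (lowest 699). The low *MET6* and *SAM2* values were those of the same library, H3L126M replicate 4.

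The change between media was called different between a mutant and WT, by the interaction term, in 9 of 20 cases. These were 6 of 10 genes for H3L126M and 3 of 10 for H3L126H, against 24.7% and 19.4% of all genes. In H3L126M the log2 differences were 0.94 for *MET3*, 0.73 for *MET10*, 1.64 for *MET6*, 0.98 for *SAM2*, 2.97 for *STR3* and 0.38 for *MUP1*. In H3L126H they were 0.60 for *MET3*, 0.79 for *MET16* and 1.71 for *STR3*. None of the H3L126H terms was called without WT replicates 1 and 2 of YPD. The terms of both mutants share the WT libraries, and they contain the YPD contrast that was known when the genes were chosen.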

How the results depend on the processing

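Counts of called genes are given first for the 10 genes. No direction of *MET6*, *STR3*, *SAM2* or *MUP1* between H3L126M and WT in YPD turned under any alternative. Without WT replicates 3 and 4 of YPD, the H3L126H count in YPD was 8 (23 in the wider list), and without 1 and 2 the H3L126H interaction count was 0 (6 in the wider list) and the wider list count for H3L126M in YPD was 20. Without WT replicates 3 and 4 of YPEG, the interaction counts were 1 for H3L126H and, in the wider list, 6 for H3L126M. Directions of values that had not passed the test also turned with these pairs. Against WT in YPEG, *MET14* went to 0.32, *SAM1* to 0.39 and *SAM2* to 0.30 in H3L126M and *MET6* to 0.12 in H3L126H without replicates 1 and 2, and *MET14* to -0.08 and *MET5* to 0.00 in H3L126H without 3 and 4. *MET5* was also at 0.00 with a mean of 100 counts required. Across media in WT, *STR3* went to 0.67 and *MET14* to 0.06 without replicates 1 and 2 of YPD, *MET10* to -0.03 without 3 and 4, and *MET14* to 0.13 without 3 and 4 of YPEG.

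At an adjusted p below 0.01, 1 of the 10 genes remained called for H3L126H in YPEG and 0 for its interaction. The wider list then had 9 calls for H3L126H and 9 for H3L126M against H3L126H in YPD, in YPEG 9 for H3L126M, 7 for H3L126H and 10 between them, and 5 and 6 for the H3L126M and H3L126H interactions. With only the libraries compared, the wider list had 12 calls for H3L126M in YPEG and 7 for its interaction. With chromosome medians removed, 7 of the 10 genes were called for H3L126H in YPD and 3 between mutants in YPEG, and 8 of the wider list between mutants in YPD. Shares of all genes at these settings are not given, so these counts show only how far the totals moved.

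Samples with the same replicate number did not deviate together (correlations of -0.35 to 0.28 between strains within a medium), so the numbers were not taken as a pairing. A replicate block gave 5 calls instead of 3 for H3L126M in YPEG and put *SAM1* at 0.01 there.

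With each library left out in turn, the counts were 3 to 7 for H3L126H in YPD, 3 to 7 for H3L126H in YPEG, 2 to 4 for H3L126M in YPEG (12 to 19 in the wider list), 1 to 4 for the H3L126H interaction and 9 to 10 for H3L126M in YPD. Single values near 0 turned sign. In H3L126M in YPEG these were *MET10* (-0.10 to 0.00), *MET14* (-0.18 to 0.13), *SAM1* (-0.23 to 0.14) and *SAM2* (-0.19 to 0.13), in H3L126H *MET5* (-0.16 to 0.09), and between mutants *MET3* (-0.14 to 0.12). Across media, *MET10* in WT ranged from -0.01 to 0.11 and *MET16* in H3L126M from -0.17 to 0.19. Other than where stated, the cause was not tested. *STR3* had the lowest count of the 10 genes, with 36 to 665 per library.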

Other observations

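Other roles of the wider list are given beside the share of all genes called across media, which was 33.4% to 36.6% higher and 31.0% to 33.9% lower in the 3 strains. All 3 sulfate and sulfur transporters (*SUL1*, *SUL2* and *SOA1*) were higher in YPEG in H3L126H, and 2 of the 3 in WT and in H3L126M. Of the 5 genes that salvage methylthioadenosine, the side product of polyamine synthesis, 4 were lower in YPEG in each of the 3 strains, with medians of -0.73, -0.83 and -0.69 on the log2 scale in WT, H3L126M and H3L126H. The 3 genes of glutathione synthesis and transport were all lower in WT, and 2 of the 3 in each mutant. Within a medium, no more than 2 genes of the salvage group were called in 1 direction in any strain comparison.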
